A study of Mus musculus with 24 samples.

Results

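Open chromatin was examined at 9 genes that encode chemoattractant receptors in bone marrow-derived macrophages: Fpr1, Fpr2, C5ar1, C3ar1, Ccr1, Ccr2, Ccr7, Cx3cr1 and Cxcr4. A peak belonged to one of these genes when the body of that gene was the nearest protein-coding gene to its summit and lay within 50 kb. This rule gave 989 of the 1274891 deposited peaks. After overlapping peaks of all libraries had been merged, they formed 77 of 102580 regions. Of these, 13 were found in 1 library only, and the other 64 were found in at least 2 libraries, as were 80598 regions over the whole genome.

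The measurement was ATAC-seq, in which the Tn5 transposase inserts sequencing adapters into accessible DNA. The 24 libraries formed 4 groups of 6: stimulated macrophages of diabetic mice, unstimulated macrophages of diabetic mice, stimulated macrophages of control mice and unstimulated macrophages of control mice. All mice were male C57Bl/6, diabetes had been induced with streptozotocin, which kills the insulin-producing beta cells, and stimulated cells received 100 ng/mL lipopolysaccharide (LPS) with 10 ng/mL interferon gamma (IFNγ). The macrophages matured in culture from marrow and were not taken from a tissue. The length of the stimulation could not be settled from the labels. Ages were not used here.

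Chemoattractant receptors are G protein-coupled receptors that steer leukocytes along gradients of chemokines, complement fragments or bacterial peptides. Ligand binding releases Gi proteins, which activate phosphoinositide 3-kinase and Rac and reorganise actin at the leading edge, and G protein-coupled receptor kinases with arrestins then silence the receptor. Macrophages use Fpr1 and Fpr2 to sense formylated peptides, C5ar1 and C3ar1 to sense the complement fragments C5a and C3a, and Ccr1, Ccr2, Cx3cr1 and Cxcr4 to sense chemokines. Ccr2 brings monocytes out of the marrow to inflamed tissue, Cx3cr1 binds fractalkine and marks patrolling monocytes and many resident macrophages, Cxcr4 binds Cxcl12 and holds cells in the marrow, and Ccr7 guides antigen-presenting cells to lymph nodes.

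The promoters give the setting for the peaks at the gene starts. RefSeq promoter sequences (GRCm38.p6, 250 bases before to 50 after the start) were matched for 8 of the 9 genes. The promoters of C5ar1, C3ar1, Ccr1 and Cxcr4 lay under a region found in all 24 libraries. The Cx3cr1 promoter lay under a region found in 21 libraries and the Fpr2 promoter under a region found in 8 libraries. No region overlapped the promoters of Fpr1 and Ccr2. Those of 4 genes are printed 5′ to 3′, because they span the range from always found to rarely found. Capitals mark the letters of a motif match, and the Cx3cr1 promoter held none.
C3ar1 promoter (chr6:122856108-122856407, minus strand): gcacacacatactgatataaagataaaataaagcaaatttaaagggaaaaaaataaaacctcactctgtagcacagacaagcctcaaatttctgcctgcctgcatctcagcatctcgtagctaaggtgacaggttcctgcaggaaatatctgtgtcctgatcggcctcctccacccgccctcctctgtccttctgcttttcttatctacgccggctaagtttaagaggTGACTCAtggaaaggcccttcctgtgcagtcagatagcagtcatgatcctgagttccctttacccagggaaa
Ccr1 promoter (chr9:123968643-123968942, minus strand): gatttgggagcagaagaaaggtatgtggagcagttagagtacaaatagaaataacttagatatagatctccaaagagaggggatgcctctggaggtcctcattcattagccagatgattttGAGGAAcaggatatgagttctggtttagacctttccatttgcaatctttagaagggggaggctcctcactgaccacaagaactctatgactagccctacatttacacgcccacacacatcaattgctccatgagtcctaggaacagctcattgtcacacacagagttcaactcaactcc
Cx3cr1 promoter (chr9:120068247-120068546, minus strand): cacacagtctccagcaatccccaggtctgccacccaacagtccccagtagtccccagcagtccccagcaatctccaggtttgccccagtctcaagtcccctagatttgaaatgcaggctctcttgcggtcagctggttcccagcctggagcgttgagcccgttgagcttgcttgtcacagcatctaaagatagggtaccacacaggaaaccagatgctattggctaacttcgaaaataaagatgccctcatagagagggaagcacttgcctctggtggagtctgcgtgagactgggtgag
Fpr2 promoter (chr17:17887574-17887873, plus strand): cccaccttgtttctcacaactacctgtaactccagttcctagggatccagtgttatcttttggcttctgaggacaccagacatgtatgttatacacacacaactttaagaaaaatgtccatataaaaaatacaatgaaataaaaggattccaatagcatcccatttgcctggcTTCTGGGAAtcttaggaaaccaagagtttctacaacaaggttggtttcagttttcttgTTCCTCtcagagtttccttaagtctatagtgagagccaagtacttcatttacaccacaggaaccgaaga

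6 motifs were searched on both strands of these promoters, with N standing for any base, and the matches did not overlap each other. The C3ar1 promoter held an AP-1 motif, TGANTCA, whose first base was 22 bases before the start, and 7.93% of 27025 RefSeq promoters of this length hold that motif. The Ccr1 promoter held a PU.1 motif, GAGGAA, with its first base at position -129, which 28.3% of promoters hold. The Fpr2 promoter held an interferon-gamma-activated sequence, TTCNNNGAA, at position -77, found in 8.47% of promoters, and a PU.1 motif on the other strand at position -19. None of these letters stood in the promoters of Fpr1, C5ar1, Ccr2, Cx3cr1 and Cxcr4. The NF-kB motif, held by 0.385% of promoters, the interferon-stimulated response element, held by 3.49%, and the C/EBP motif TTGCNNAA, held by 10.8%, had no match in any of the 8. These matches are letters in a window and no evidence of binding.

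The peak lists held between 41385 and 61861 peaks. Their mean length was 53703 ± 4511 in stimulated diabetic, against 55522 ± 4925 in unstimulated diabetic, and 47268 ± 4535 in stimulated control, against 55990 ± 3486 in unstimulated control macrophages (SD, n = 6 each). The sources used here give no read totals, so the depth is unknown. A region without a peak is a region below the calling threshold, and fewer cells with open chromatin cannot be told apart from less open chromatin per cell. Of 10 macrophage marker genes, 8 had a region found in all 24 libraries, and the lists held 3.5 to 5.1 peaks per marker gene in stimulated diabetic, against 4.5 to 5.6 in unstimulated diabetic, and 3.3 to 5.2 in stimulated control, against 4.7 to 5.2 in unstimulated control libraries. Such a region stood at 2 of 10 neutrophil, 2 of 8 T and NK cell, 0 of 6 B cell, 5 of 6 dendritic cell, 0 of 4 mast cell, 1 of 4 erythroid and 2 of 4 stromal and endothelial marker genes. A region found in at least 2 libraries stood at 8 of the 10 neutrophil, 5 of the 8 T and NK cell, 4 of the 6 B cell, 6 of the 6 dendritic cell, 2 of the 4 mast cell, 2 of the 4 erythroid and 4 of the 4 stromal and endothelial genes. The marker genes with no peak in any library were Ly6g, Elane, Cd3g, Cd8a, Ncr1, Cd79a, Cd79b, Mcpt4, Fcer1a, Gata1 and Hba-a1.

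The receptor genes differed in how densely they were covered. Over the 24 libraries Ccr1 had 191 peaks, Cxcr4 174, Cx3cr1 171, Fpr2 102, Ccr2 76, C5ar1 74, Ccr7 71, Fpr1 69 and C3ar1 61. Regions found in all 24 libraries numbered 5 at Cx3cr1, 4 at Cxcr4, 3 at Ccr1, 2 each at Fpr1, Fpr2, C5ar1 and C3ar1, 1 at Ccr2 and 0 at Ccr7. In all, 21 of the 64 regions (32.8%) were found in every library, against 28.3% of all regions. The share at the receptor genes was thus near that of the genome.

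**Figure D1:**
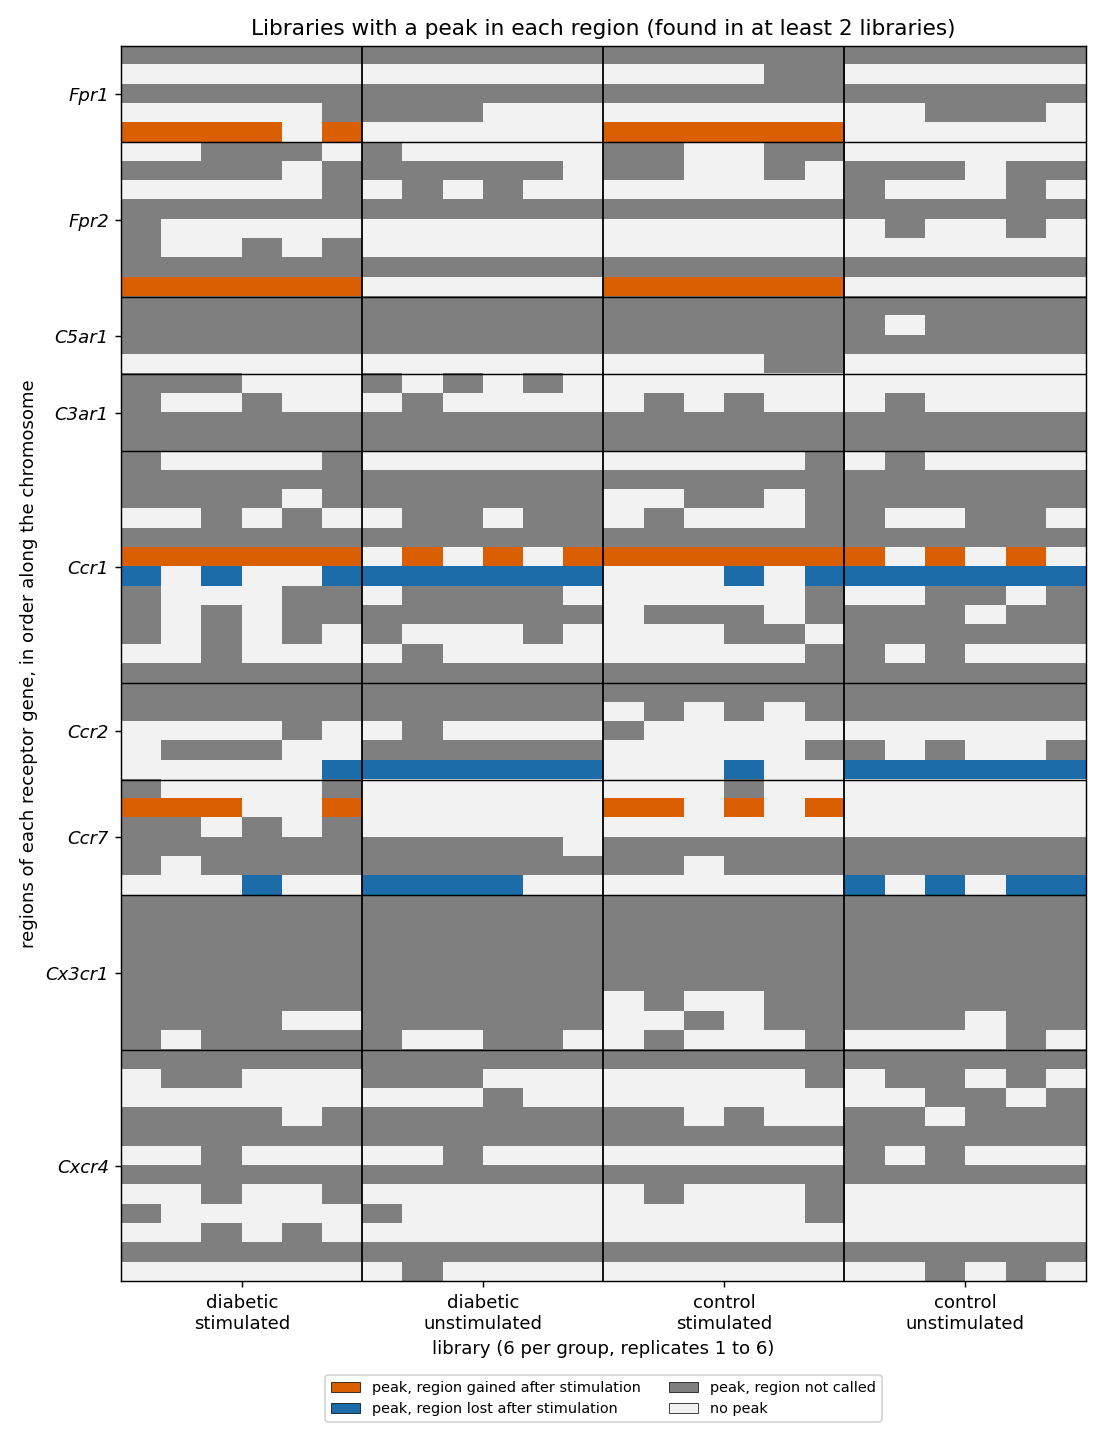
Each row is 1 of the 64 receptor gene regions found in at least 2 libraries, in chromosome order within a gene, and each column is 1 of 24 libraries. Filled cells mark a peak, orange rows are the 4 regions gained and blue rows the 3 regions lost after stimulation with both phenotypes pooled, and the 21 rows filled throughout are the regions found everywhere.

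The first comparison asked which regions appeared or disappeared with stimulation. Over both phenotypes, 12 stimulated libraries were set against 12 unstimulated libraries with Fisher's exact test (two-sided) for each region and Benjamini-Hochberg adjustment over the 31219 regions that could pass. A region is called gained or lost where its adjusted p was at most 0.05. Of the 64 receptor regions, 23 could be tested. Gained regions numbered 4, 1 each at Fpr1, Fpr2, Ccr1 and Ccr7, or 17.4% of those tested, against 9.19% of all regions tested. Lost regions numbered 3, 1 each at Ccr1, Ccr2 and Ccr7, or 13%, against 18.9% of all. Together 30.4% of the tested receptor regions were called, against 28.1% over the genome, so the number of calls at these genes stood near the background. Counted in libraries, the median difference in presence was -3 for the receptor regions and -2 for all regions tested. With lists cut to the 41385 strongest peaks the calls were 4 gained and 4 lost, and with a −log10 q-value of at least 5 they were 3 gained and 5 lost. Neither called Ccr7 region could be tested in the cut lists, so the calls there were not all at the same regions. The shares over all regions are not given for these settings, so these counts cannot be set against a background.

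Regions at cell type markers moved with stimulation as well. Of the regions tested, macrophage markers had 0 gained and 6 lost of 19, among them Adgre1 in 2 stimulated and 12 unstimulated libraries. Neutrophil markers had 3 gained and 1 lost of 11. An Mmp8 region was gained, in 12 stimulated and 3 unstimulated libraries, as was an Ltf region, in 9 stimulated and 0 unstimulated libraries. The lost region was at Mpo, in 2 stimulated and 10 unstimulated libraries. T and NK cell markers had 0 gained and 4 lost of 7, dendritic cell markers 0 gained and 3 lost of 13, and B cell markers 0 gained and 0 lost of 11. Mast cell markers had 1 gained and 0 lost of 5, erythroid markers 0 gained and 1 lost of 1, and stromal and endothelial markers 3 gained and 2 lost of 7. These 3 gained regions were all at Dcn, among them a region in 11 stimulated and 0 unstimulated libraries. The 2 lost were at Cdh5, in 0 stimulated and 8 unstimulated libraries, and at Pecam1, in 5 stimulated and 12 unstimulated libraries. The part of other cells in the receptor results was not tested.

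The formyl peptide receptors carried the clearest gains. Fpr1 and Fpr2 lie head to head on chromosome 17, with 3885 bp between their starts. Fpr1 encodes a receptor for bacterial N-formyl peptides. A region between both genes (chr17:17884749-17885188, mm10) had its summit 1042 bp upstream of the Fpr1 start and 2843 bp upstream of the Fpr2 start. Peaks stood there in 5 of 6 stimulated and 0 of 6 unstimulated diabetic libraries, and in 6 of 6 stimulated and 0 of 6 unstimulated control libraries. The authors' fold enrichment of its peaks ran from 4.15 through a median of 7.38 to 8.41 in the diabetic libraries that had it, and from 5.23 through 6.12 to 6.95 in the control libraries. Stimulated replicate 5 of the diabetic group was the only stimulated library without it, and no unstimulated library had it. The adjusted p was 0.000303 over both phenotypes and 0.0173 within controls (Fisher's exact test). Within diabetic macrophages the adjusted p was 0.0559, and the region was not called there. Adjusting over all regions, testable or not, ended the call within controls (0.115).

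Fpr2 encodes a receptor for formyl peptides, serum amyloid A and annexin A1 fragments. Its gained region (chr17:17917413-17918036) lay 23831 bp beyond the 3′ end of the gene, and no other protein-coding gene body was nearer. Peaks stood there in 6 of 6 stimulated and 0 of 6 unstimulated diabetic libraries and in 6 of 6 stimulated and 0 of 6 unstimulated control libraries, so presence alone separated all 24 libraries by stimulation. Fold enrichments ran from 7.16 through a median of 9.78 to 11.4 in stimulated diabetic libraries and from 7.97 through 9.03 to 9.87 in stimulated control libraries. The adjusted p was 6.17e-05 over both phenotypes, 0.0243 within diabetic and 0.0173 within control macrophages (Fisher's exact test). It was the only receptor region called by presence in both phenotypes, and with lists of equal length it was again present in 12 stimulated and 0 unstimulated libraries. Both calls within a phenotype ended when p-values were adjusted over all regions, testable or not, at 0.167 in diabetic and 0.115 in control macrophages.

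At the start of Fpr2 the pattern was weaker. The region over its promoter (chr17:17887738-17888025), which overlaps 136 bases of the printed sequence, was found in 3 stimulated and 1 unstimulated diabetic libraries and in 4 stimulated and 0 unstimulated control libraries. Its adjusted p of 0.0895 did not pass the threshold (Fisher's exact test). Inside Fpr1, 1083 bp downstream of its start, a region was found in 1 stimulated and 3 unstimulated diabetic libraries and in 0 stimulated and 3 unstimulated control libraries, with an adjusted p of 0.162. A region 12221 bp past Fpr2 was found in 3 stimulated diabetic libraries and in no other, which is too few to test. These 3 regions were chosen for mention after their values had been seen.

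**Figure D2:**
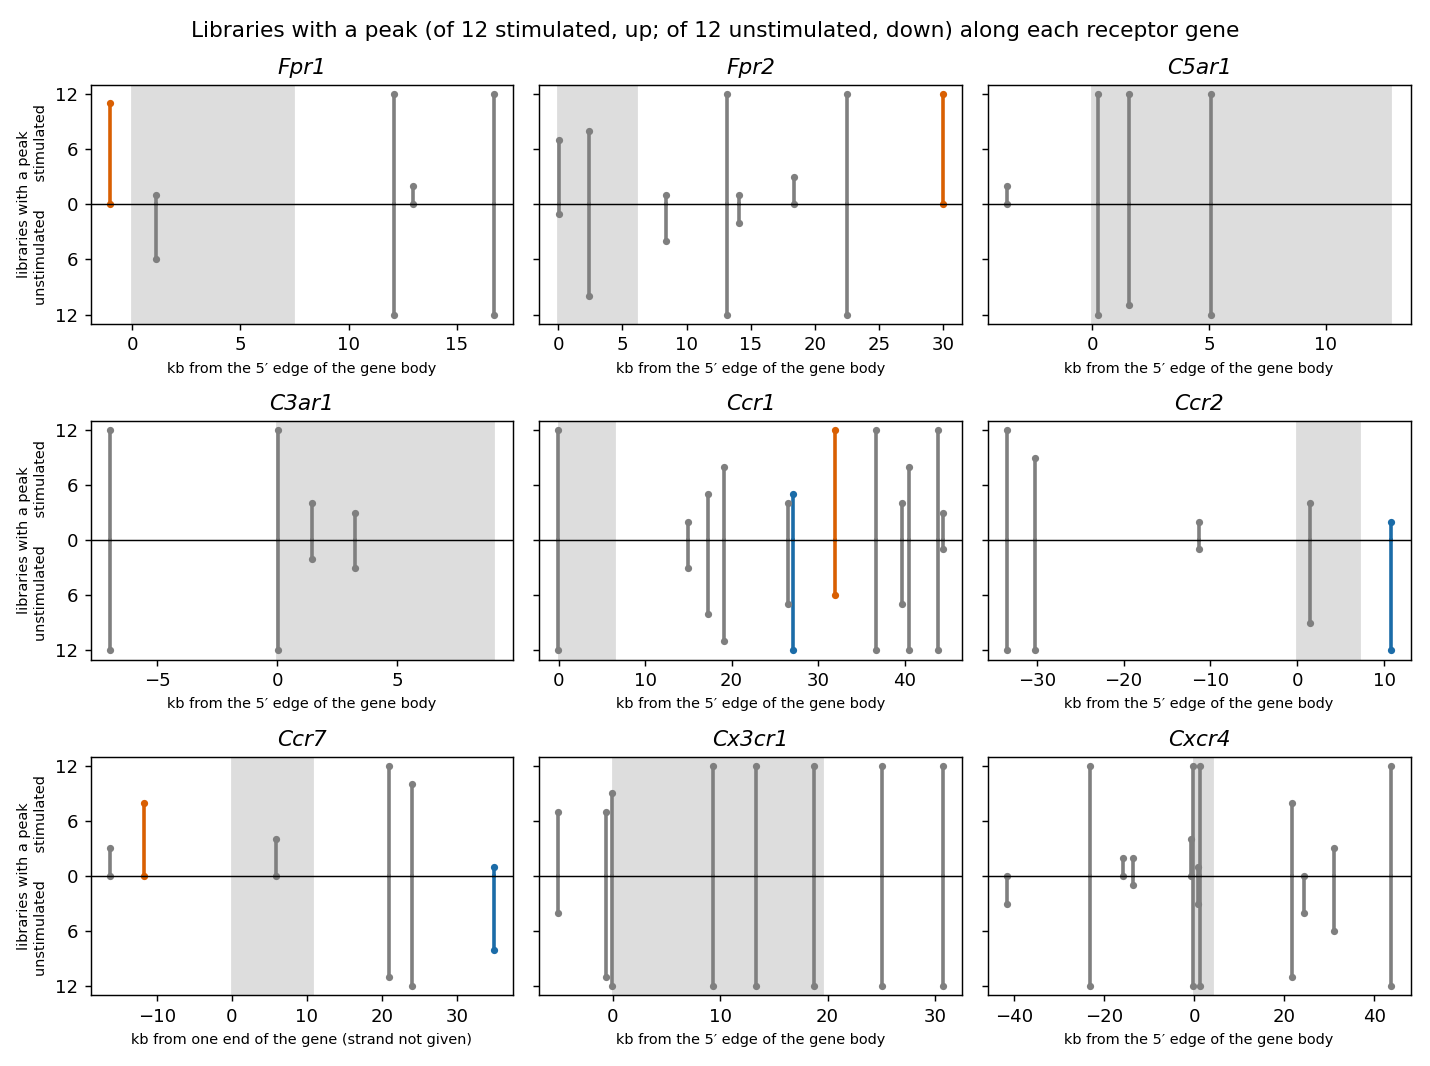
Bars show, for each region found in at least 2 libraries, the number of the 12 stimulated libraries (up) and of the 12 unstimulated libraries (down) with a peak, by distance in kb from the 5′ edge of the gene body (grey; for Ccr7, whose strand was not at hand, from one end). The orange bar between Fpr1 and Fpr2 reaches 11 and 0 libraries, the orange bar past Fpr2 reaches 12 and 0, and the blue bar past Ccr2 reaches 2 and 12.

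Among the chemokine receptors of the 9 genes, Ccr2 had the clearest loss by presence. Ccr2 is the receptor for Ccl2 and the defining receptor of inflammatory monocytes. The lost region (chr9:124112582-124112948) lay 3612 bp beyond the 3′ end of Ccr2. Peaks stood there in 1 of 6 stimulated and 6 of 6 unstimulated diabetic libraries, and in 1 of 6 stimulated and 6 of 6 unstimulated control libraries. Its fold was 5.86 in the stimulated diabetic library that had it, and 5.49, 7.66 and 9.30 at the lowest, median and highest of the unstimulated diabetic libraries. In the stimulated control library that had it the fold was 4.55, and in unstimulated control libraries it was 6.04, 6.79 and 8.78. The adjusted p was 0.00128 over both phenotypes, 0.0422 within controls and 0.0559 within diabetic macrophages, where it was not called (Fisher's exact test). The call within controls was lost when any of control stimulated replicates 1, 2 and 3 or control unstimulated replicates 1, 3, 4, 5 and 6 was left out, with adjusted p-values of 0.0503 to 0.0540 by the same test. It was also lost when p-values were adjusted over all regions (0.281).

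Other Ccr2 regions were not called. Inside the gene, 1259 bp from its start, a region was found in 3 stimulated and 6 unstimulated diabetic libraries and in 1 stimulated and 3 unstimulated control libraries, with an adjusted p of 0.213. A region 30213 bp upstream was found in 6 stimulated and 6 unstimulated diabetic libraries and in 3 stimulated and 6 unstimulated control libraries, a number of detections that cannot pass the test. The only Ccr2 region found everywhere lay 33422 bp upstream. These 3 regions were picked after their values had been seen.

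Ccr1, a receptor for Ccl3 and Ccl5, had 1 gained and 1 lost region on its 3′ side. The gained region (chr9:123936621-123936960, 25362 bp beyond the gene) was found in 6 stimulated and 3 unstimulated diabetic libraries and in 6 stimulated and 3 unstimulated control libraries. Its adjusted p of 0.0489 lay at the threshold. Leaving out any of control stimulated replicates 1 to 5, control unstimulated replicates 2, 4 and 6 or diabetic unstimulated replicates 1, 3 and 5 ended this call, with adjusted p-values of 0.0503 to 0.0520 (Fisher's exact test). The call was also lost with stricter lists (0.198) and with 200 bp windows around the summits (0.0527). The lost region (chr9:123941414-123941774, 20560 bp beyond the gene) was found in 3 stimulated and 6 unstimulated diabetic libraries and in 2 stimulated and 6 unstimulated control libraries, with an adjusted p of 0.0235. Its presence was complete in unstimulated libraries, and with lists of equal length 2 stimulated and 11 unstimulated libraries had it (adjusted p = 0.00565). Adjusting over all regions, testable or not, ended both Ccr1 calls, with adjusted p-values of 0.126 for the gained and 0.0606 for the lost region (Fisher's exact test).

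Ccr7, the receptor for Ccl19 and Ccl21, had no region found in all 24 libraries, and both of its called regions were found in few libraries. The gained region (chr11:99132399-99132707, 11632 bp from the gene) was found in 4 stimulated and 0 unstimulated diabetic libraries and in 4 stimulated and 0 unstimulated control libraries, with folds of 4.26 to 6.99 and an adjusted p of 0.0101. The lost region (chr11:99178997-99179300), on the other side of the gene at 24044 bp, was found in 1 stimulated and 4 unstimulated diabetic libraries and in 0 stimulated and 4 unstimulated control libraries, with an adjusted p of 0.0437 (Fisher's exact test). With lists of equal length the gained region was left in 4 stimulated and 0 unstimulated libraries and the lost region in 0 stimulated and 3 unstimulated libraries, too few for either to be tested. Adjusting over all regions ended the call of the lost region (0.113). The Ccr7 region found most often, in 23 libraries, lay 10037 bp from the gene and was picked for that number after it had been seen.

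C5ar1, C3ar1, Cx3cr1 and Cxcr4 had no gained or lost region under the nearest-gene rule. A lost region between Cx3cr1 and Ccr8 (chr9:120083108-120083511), in 1 stimulated and 12 unstimulated libraries, was nearer to Ccr8 and was counted there. None of the C5ar1 regions could be tested, since 3 were found in 23 or 24 libraries and the others in at most 2. Each of C3ar1, Cx3cr1 and Cxcr4 had 2 regions that could be tested. The region over the Cx3cr1 promoter (chr9:120068142-120068649) was found in 6 stimulated and 6 unstimulated diabetic libraries and in 3 stimulated and 6 unstimulated control libraries, a count that no arrangement of libraries would let pass. Where found, its folds had medians of 5.13 in stimulated diabetic, against 9.49 in unstimulated diabetic, and 4.40 in stimulated control, against 8.71 in unstimulated control libraries. This region was picked after its values had been seen, and its folds are a description only.

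Within each phenotype fewer libraries were at hand, and the smallest p of 6 against 6 libraries is 0.00216. In diabetic macrophages 9 receptor regions could be tested, and 1 was gained and 0 were lost, against 5.47% gained and 3.44% lost, 8.92% in all, of 11708 regions tested. In control macrophages 4 could be tested, and 2 were gained and 1 was lost, against 8.41% gained and 27.5% lost, 35.9% in all, of 12111. Stimulated control libraries had the shortest lists. With lists of equal length the receptor regions gave 3 gained and 0 lost in diabetic and 3 gained and 3 lost in control macrophages, without a share over all regions beside them. The part of list length in single calls was not tested beyond these values.

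A second measure was used for the 21 receptor regions found in all 24 libraries, where presence cannot differ. Each library's fold enrichment was ranked among the 22770 regions found everywhere and is given as a percentile, in which 100 is the strongest. Ranks were turned into normal scores and compared with limma in 1 fit over all 24 libraries. After stimulation 6 of the 21 regions ranked lower and 0 ranked higher, or 28.6% called, against 30.4% called among all such regions, 14.7% higher and 15.7% lower. Both directions together were again near the background. By direction, 28.6% ranked lower, against 15.7%, and 0 ranked higher, against 14.7%, a lean that was not tested. Within diabetic macrophages 3 of the 21 ranked lower and 0 higher, against 5.51% lower and 4.77% higher over the genome, or 10.3% in all. Within controls 5 ranked lower and 0 higher, against 10.2% lower and 9.52% higher, or 19.7% in all. When the −log10 q-value was ranked in place of the fold, 6 receptor regions were lower and 2 higher, without a share over all regions beside them. The lower ones were not all the same: a region 16351 bp beyond Fpr2 was no longer called, and a region 5402 bp beyond Cx3cr1 was called instead. The higher ones were 1 region 9259 bp beyond Fpr1 and 1 region 39650 bp beyond Cxcr4.

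The largest of these shifts was at Cx3cr1. A region 11088 bp beyond the 3′ end of Cx3cr1 (chr9:120037255-120037851), with Xirp1 13996 bp away on its other side, had percentiles of 18.5, 25.4 and 35.9 at the lowest, median and highest of stimulated diabetic libraries, against 71.4, 87.9 and 92.9 in unstimulated diabetic libraries. In controls the percentiles were 2.74, 19.7 and 42.5 in stimulated libraries, against 65.0, 84.8 and 95.6 in unstimulated libraries. Stimulated and unstimulated libraries did not overlap in either phenotype. The difference was -1.85 ± 0.17 normal score units (SE; adjusted p = 3.17e-09, limma), and the adjusted p was 1.15e-05 within diabetic and 4.74e-06 within control macrophages. The fold itself had medians of 7.18 in stimulated diabetic, against 14.2 in unstimulated diabetic, and 5.95 in stimulated control, against 13.3 in unstimulated control libraries.

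Cx3cr1 held a second lowered region. Inside the gene, 9358 bp from its start (chr9:120058742-120059123), the mean percentile was 70.1 ± 15.6 in stimulated diabetic, against 78.7 ± 10.4 in unstimulated diabetic, and 53.3 ± 16.3 in stimulated control, against 84.0 ± 6.20 in unstimulated control libraries (SD, n = 6 each). The adjusted p was 0.0131 over both phenotypes and 0.0118 within controls (limma). The groups overlapped in both phenotypes, and the fit within diabetic macrophages made no call. Of the other Cx3cr1 regions found everywhere, the one 923 bp from the 3′ end of the gene was not called (adjusted p = 0.593, limma).

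Fpr1 and Fpr2 each had 1 region that ranked lower. A region 4626 bp beyond the 3′ end of Fpr1 (chr17:17871576-17872087) had percentiles of 13.2, 21.9 and 45.3 at the lowest, median and highest of stimulated diabetic libraries, against 56.6, 59.8 and 74.2 in unstimulated diabetic libraries. In controls the values were 2.99, 31.0 and 41.8 in stimulated libraries, against 36.5, 49.5 and 84.1 in unstimulated libraries. The groups did not overlap in diabetic macrophages and overlapped in controls. The difference was -0.96 ± 0.18 normal score units (SE; adjusted p = 9.75e-05, limma), with adjusted p-values of 0.00545 within diabetic and 0.0113 within control macrophages.

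At Fpr2 a region 16351 bp beyond its 3′ end (chr17:17909946-17910624) averaged percentiles of 68.5 ± 8.68 in stimulated diabetic, against 78.0 ± 12.2 in unstimulated diabetic, and 70.0 ± 13.6 in stimulated control, against 88.5 ± 6.09 in unstimulated control libraries (SD, n = 6 each). Its adjusted p was 0.0140 (limma), but ranks of the −log10 q-value gave 0.605. Within controls the adjusted p was 0.0285, and it was 0.0522 without control stimulated replicate 1, 0.078 without control stimulated replicate 6 and 0.0882 without control unstimulated replicate 2. The highest-ranked of the 21 receptor regions lay 7012 bp beyond Fpr2, at mean percentiles of 94.1 ± 5.18 in stimulated diabetic, against 94.2 ± 6.05 in unstimulated diabetic, and 96.9 ± 1.70 in stimulated control, against 95.4 ± 4.49 in unstimulated control libraries. It was picked for its rank and was not called (adjusted p = 0.887, limma).

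**Figure D3:**
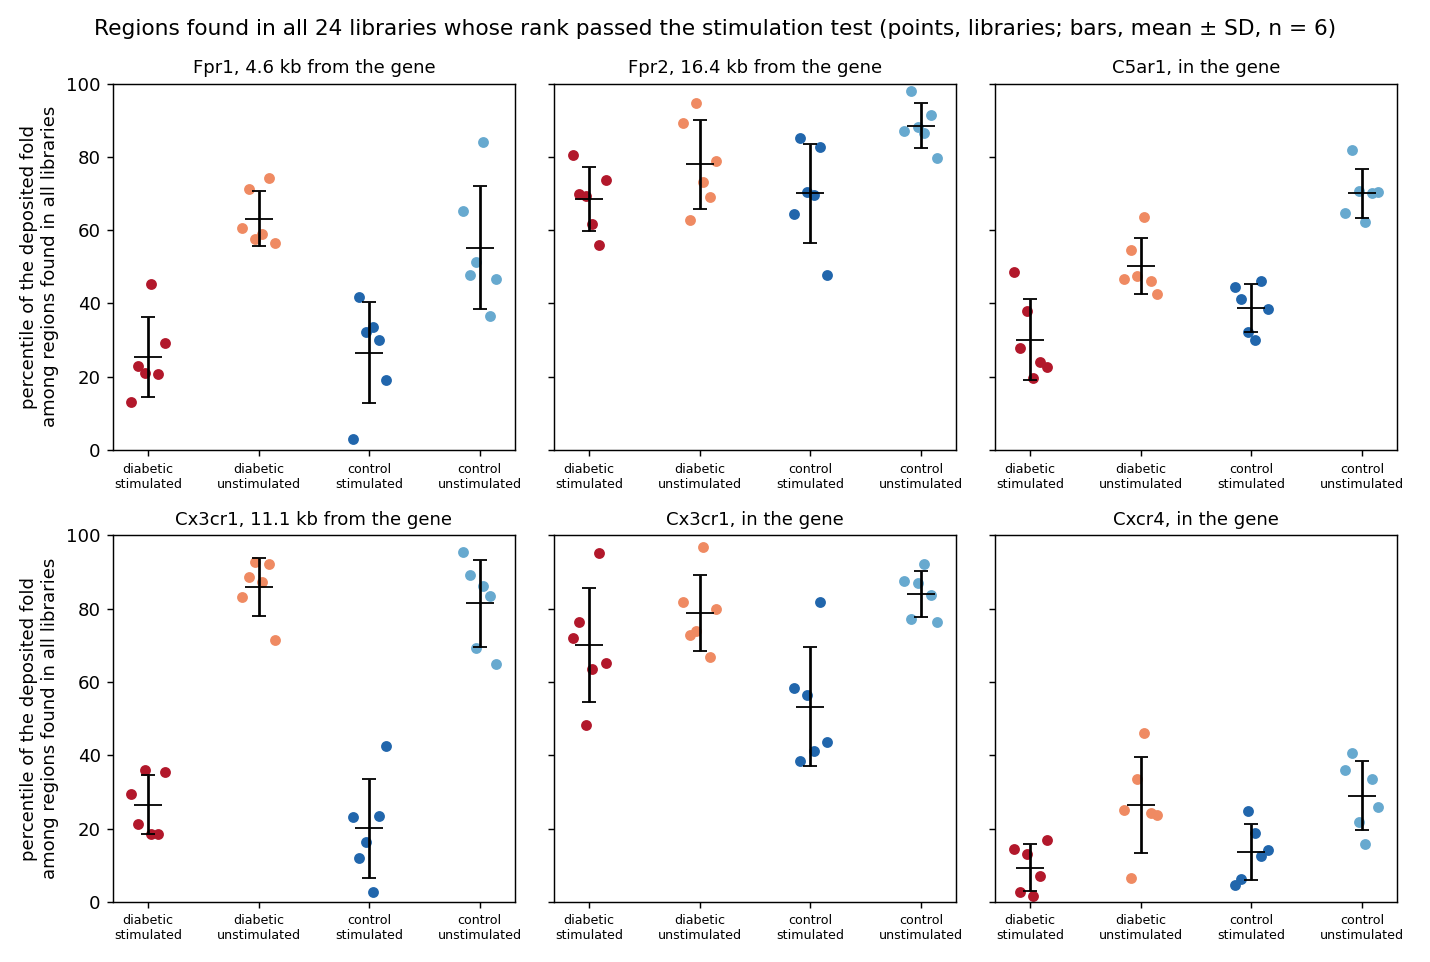
Each panel is 1 of the 6 receptor regions found in all 24 libraries that ranked lower after stimulation, with the percentile of its deposited fold among all regions found everywhere on the vertical axis, points for libraries and bars for the mean ± SD of 6. At the region 11.1 kb from Cx3cr1 every stimulated library lies at or below 42.5 and every unstimulated library at or above 65.0.

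Both complement receptors had a region over the start in all 24 libraries. C5ar1 encodes the receptor for C5a, an attractant of myeloid cells. The region over its start stood at mean percentiles of 17.9 ± 12.9 in stimulated diabetic, against 19.6 ± 8.41 in unstimulated diabetic, and 10.3 ± 7.12 in stimulated control, against 23.8 ± 10.4 in unstimulated control libraries (adjusted p = 0.105, limma). Inside the gene, 4880 bp from the start (chr7:16254196-16254681), a region ranked lower after stimulation. Its percentiles were 19.6, 25.9 and 48.6 at the lowest, median and highest of stimulated diabetic libraries, against 42.6, 47.1 and 63.6 in unstimulated diabetic libraries. In controls they were 30.1, 39.9 and 46.3 in stimulated libraries, against 62.4, 70.4 and 81.8 in unstimulated libraries. The control groups did not overlap and the diabetic groups did. The difference was -0.69 ± 0.13 normal score units (SE; adjusted p = 0.000157, limma), and the adjusted p within controls was 0.00206.

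C3ar1 encodes the receptor for the complement fragment C3a. The region over its start averaged percentiles of 82.5 ± 13.4 in stimulated diabetic, against 88.2 ± 6.05 in unstimulated diabetic, and 87.7 ± 6.12 in stimulated control, against 92.9 ± 1.87 in unstimulated control libraries, a difference that was not called (adjusted p = 0.299, limma). Within C3ar1, 3246 bp from the start, a weaker region was found in 3 stimulated and 3 unstimulated diabetic libraries and in 0 stimulated and 0 unstimulated control libraries. It was picked after its values had been seen, and no test of phenotype over both states was made.

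Cxcr4 and Ccr1 also had a region at the start in all 24 libraries. At Cxcr4, 237 bp before the start, the mean percentile was 8.404 ± 7.91 in stimulated diabetic, against 8.62 ± 6.21 in unstimulated diabetic, and 12.9 ± 4.36 in stimulated control, against 4.03 ± 2.28 in unstimulated control libraries (adjusted p = 0.298, limma). At Ccr1 it was 72.0 ± 13.95 in stimulated diabetic, against 59.95 ± 19.8 in unstimulated diabetic, and 71.2 ± 21.6 in stimulated control, against 71.7 ± 16.3 in unstimulated control libraries (adjusted p = 0.515, limma). Inside Cxcr4, 1367 bp from the start (chr1:128590718-128591200), a region ranked lower after stimulation. Its mean percentile was 9.27 ± 6.45 in stimulated diabetic, against 26.5 ± 13.1 in unstimulated diabetic, and 13.5 ± 7.63 in stimulated control, against 28.9 ± 9.42 in unstimulated control libraries, with overlap in both phenotypes. The adjusted p was 0.00307 over both phenotypes and 0.0389 within diabetic macrophages (limma). Leaving out diabetic stimulated replicate 2, 4 or 5 or diabetic unstimulated replicate 1, 3, 4, 5 or 6 ended the call within diabetic macrophages, with adjusted p-values of 0.0583 to 0.115.

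The next comparisons set diabetic against control macrophages. After stimulation, 0 of 5 testable receptor regions differed in presence, against 0% of 9681 regions over the genome, and at rest 0 of 5 differed, against 0% of 8788 (Fisher's exact test). The lowest adjusted p at the receptor genes was 0.835 after stimulation and 1 at rest, and 0 receptor regions had an unadjusted p under 0.05 in either state. By rank, 0 of 21 receptor regions were called in either state, against 0% of all 22770, and 1 in each state had an unadjusted p under 0.05 (limma). After stimulation this was the Cx3cr1 region 923 bp from the 3′ end, with mean percentiles of 78.3 ± 18.1 in diabetic and 61.0 ± 23.7 in control macrophages (adjusted p = 0.516). At rest it was the region inside C5ar1, with 50.2 ± 7.68 in diabetic and 70.1 ± 6.74 in control macrophages (adjusted p = 0.855).

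The interaction asked whether the response to stimulation differed between phenotypes. Presence gave 0 calls among 5 testable receptor regions, against 0% of 10469 (Zelen's exact test), and rank gave 0 calls of 21, against 0% of 22770 (limma). The lowest adjusted p at these genes was 1 by presence and 0.727 by rank, and an unadjusted p under 0.05 was found for 0 regions by presence and 2 by rank, at Cx3cr1 and Cxcr4. The 5 regions tested by presence did not include any region gained or lost after stimulation, since the detections of those regions could not pass this test. So presence calls made in 1 phenotype only, such as that between Fpr1 and Fpr2 in controls, were not tested for a difference in response. Rank calls made in 1 phenotype only were tested and were not shown to differ between phenotypes. A region inside Ccr7 (chr11:99150007-99150370) was found in 4 stimulated diabetic libraries and in 0 of the 18 libraries of the other groups, with folds of 4.45 to 5.11. It was picked after its values had been seen, and its 4 detections cannot pass the test.

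The number of peaks per gene was also compared, by exact permutation of 6 against 6 libraries. Ccr2 had 2, 3, 3, 3, 3 and 3 peaks in stimulated diabetic libraries, against 4, 5, 4, 4, 4 and 4 in unstimulated diabetic libraries. In controls Ccr2 had 2, 2, 1, 3, 1 and 3 peaks in stimulated libraries, against 4, 4, 4, 3, 3 and 4 in unstimulated libraries. The diabetic groups did not overlap, and the control groups met at 3 peaks. The permutation p was 0.00216 in diabetic macrophages, the smallest that 924 label orders give, and 0.0130 in controls. Adjusted over the 16921 genes tested these became 0.262 and 0.192, and 0% of genes passed in any of the 4 comparisons of this measure. An unadjusted permutation p under 0.05 was found for 2 receptor genes after stimulation in diabetic and 1 in control macrophages, and between diabetic and control for 1 after stimulation and 0 at rest.

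Fpr2 averaged 5.5 ± 1.05 peaks in stimulated diabetic libraries and 3.5 ± 1.05 in unstimulated diabetic libraries, with a permutation p of 0.0216 and an adjusted p of 0.499. In controls it averaged 4.17 ± 0.98 peaks in stimulated and 3.83 ± 1.17 in unstimulated libraries (SD, n = 6 each; permutation p = 0.784). Cxcr4 averaged 7.83 ± 1.17 peaks in stimulated diabetic and 5.83 ± 1.47 in stimulated control libraries, with a permutation p of 0.0476 and an adjusted p of 1. The whole lists were longer in stimulated diabetic than in stimulated control macrophages in the same way, as given above, and their part in this difference was not tested. Over all 9 genes the median number of peaks per library was 45.5 in stimulated diabetic, against 42.5 in unstimulated diabetic, and 36.5 in stimulated control, against 42.5 in unstimulated control macrophages.

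**Figure D4:**
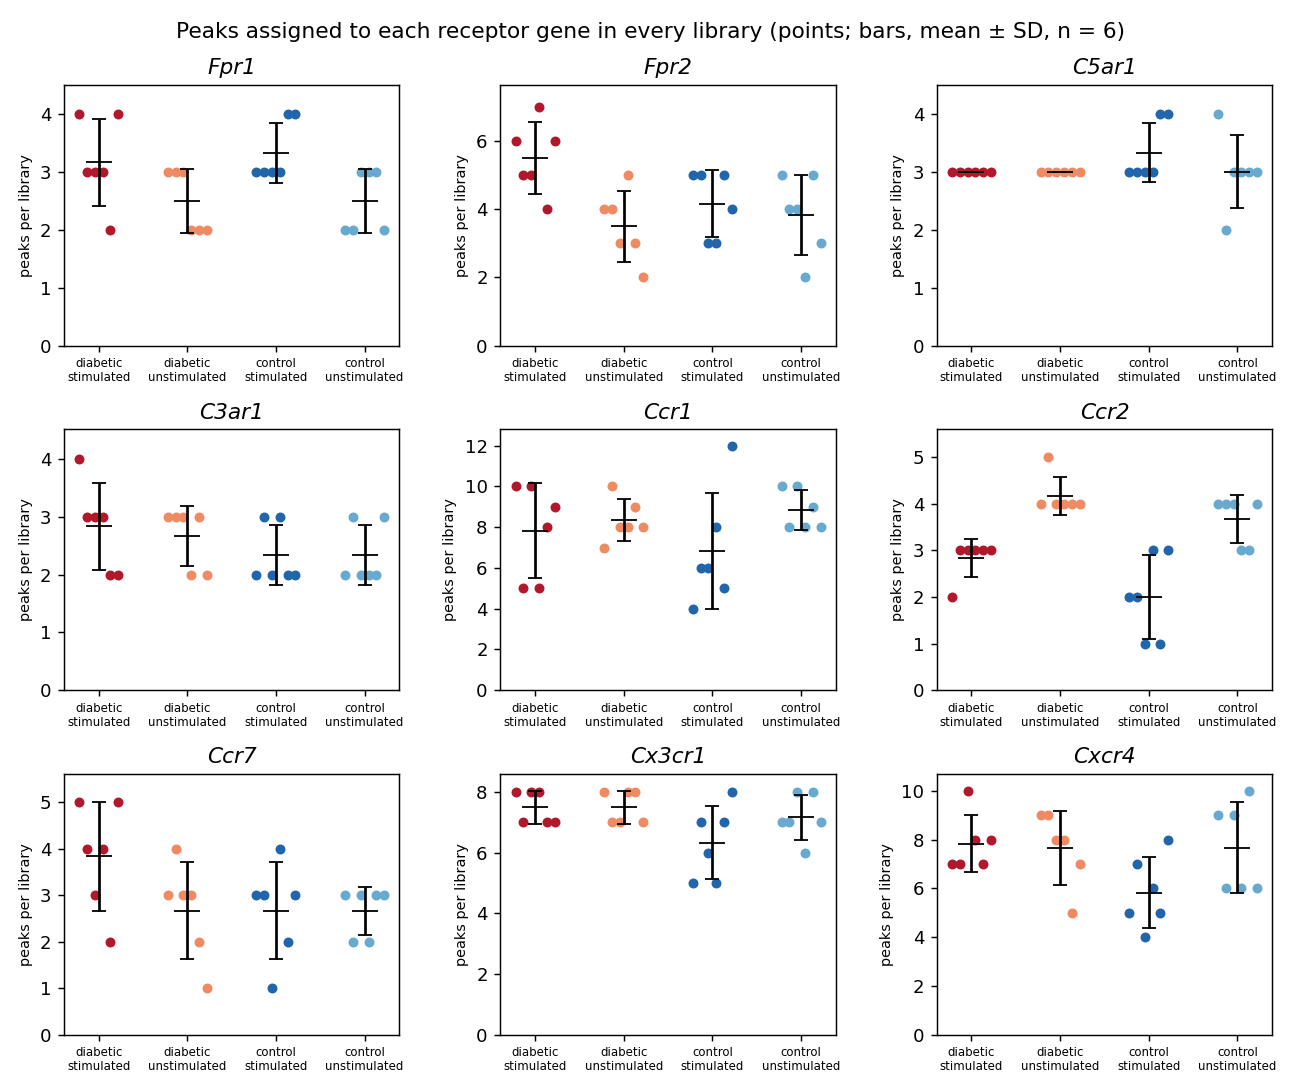
Points give the number of peaks assigned to each receptor gene in every library, and bars the mean ± SD of 6 libraries per group. Ccr2 averages 2.83 peaks in stimulated and 4.17 in unstimulated diabetic libraries, and 2 in stimulated and 3.67 in unstimulated control libraries, and C5ar1 holds 3 peaks in every diabetic library.

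Genes with the most similar peak numbers over the 24 libraries were listed for the 5 receptors with a gained or lost region, by the mean absolute difference in peaks per library. For Fpr1 they were Cyp2r1 (0.292 peaks) and Dhx57 (0.333), and for Fpr2 they were Thra (0.708) and Elapor2 (0.75). Ccr1 was nearest to Tmc1 (1 peak) and Galnt2 (1.08). For Ccr2 the nearest were Cfp (0.375), which encodes properdin of the alternative complement pathway, and Gpx1 (0.417), which encodes a glutathione peroxidase. Ccr7 was nearest to Igsf8 and Tfdp2 (0.5 each).

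Other genes of the same system were described by counts. Of 30 further chemoattractant receptor genes, 27 had a region, and 52 regions could be tested over both phenotypes, of which 2 (3.85%) were gained and 10 (19.2%) lost, with a median difference of -3 libraries. Over all regions tested 9.19% were gained and 18.9% lost, so the lost share was near the background. A Ccr3 region was found in 1 stimulated and 12 unstimulated libraries, a Ccr8 region in 1 stimulated and 12 unstimulated, and an Ltb4r2 region in 0 stimulated and 11 unstimulated (adjusted p = 0.000303 each, Fisher's exact test). Both gained regions were at Ccr9, in 12 stimulated and 2 unstimulated libraries and in 9 stimulated and 0 unstimulated libraries. Ccr3, Ccr8 and Ccr9 lie on chromosome 9, as do Ccr1, Ccr2 and Cx3cr1. The Ccr8 region lay between Cx3cr1 and Ccr8, as given above.

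Of 19 ligand genes, 17 had a region, and of 38 regions tested 9 (23.7%) were gained and 4 (10.5%) lost, against 9.19% and 18.9% of all regions, with a median difference of -1. Ccl5 and Ccl8 each had a region present in 10 stimulated and 0 unstimulated libraries (adjusted p = 0.00128 each). A region at Anxa1, whose product is an Fpr2 ligand, was present in 8 stimulated and 0 unstimulated (adjusted p = 0.0101). At Ccl6 the counts of 1 region were 2 stimulated and 11 unstimulated libraries, with an adjusted p of 0.00622 (Fisher's exact test). Of 23 signalling genes below the receptors, all had a region, and of 90 regions tested 10 (11.1%) were gained and 18 (20%) lost, with a median difference of -2. Both shares were near the 9.19% gained and 18.9% lost of all regions. A Grk5 region, at a kinase that desensitises receptors, was present in 12 stimulated and 0 unstimulated libraries, with an adjusted p of 6.17e-05. A region at Elmo1, which with Dock2 activates Rac, was present in 11 stimulated and 0 unstimulated libraries, with an adjusted p of 0.000303. A region at Prex1, another Rac activator, was present in 1 stimulated and 11 unstimulated libraries (adjusted p = 0.00176, Fisher's exact test). Both genes also had calls in the other direction. Elmo1 had lost regions, among them a region in 3 stimulated and 11 unstimulated libraries, and Prex1 a gained region in 10 stimulated and 3 unstimulated libraries. Over all regions tested the median difference was -2.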

How the data were processed

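ATAC-seq peak lists of 24 libraries in 4 groups of 6 were used, 1 narrowPeak list per library, called by the authors on mm10. Tools named in the submitters' processing notes are MACS2 2.1.1, Bowtie2 2.2.6, edgeR, DiffBind 2.4.8, Trim Galore 1.8 and FastQC 0.11.3. The sources used here give neither their settings nor whether reads were shifted for Tn5 insertion. Per the labels, each replicate used 50000 cells, fragments over 1200 bp were discarded, and reads had 50 bp. The deposited lists give a score, a fold enrichment (ratio) and −log10 p- and q-values per peak, all the authors' own. The lowest deposited −log10 q-value was 1.302.

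Genes came from a RefSeq table of GRCm38.p6, the assembly of mm10, and bedtools 2.31.1 found the nearest protein-coding gene body to each summit. Peaks sharing at least 1 bp were merged, and tests used the regions present in at least 2 libraries. A region belonged to a gene when over 50% of its peaks did. Presence was tested with two-sided Fisher's and Zelen's exact tests (own code in Python 3.11.15), ranks with limma 3.58.1 on normal scores, and peaks per gene with two-sided exact permutation tests. Correction for multiple testing followed Benjamini and Hochberg, with a threshold of 0.05. For presence it covered only the regions that could pass in a given comparison, 31219 over both phenotypes. For ranks it covered the 22770 regions found everywhere, and for peaks per gene the 16921 genes tested. All tests rest on these 24 libraries alone. The tests were tested on simulated data with known changes. Libraries shared 54.2% to 74.0% of their regions pairwise, and none was a copy of another.

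The series description says each mouse sample was divided between both states, but the labels do not say that a replicate number marks 1 mouse. Same-numbered libraries showed correlations of deviations between -0.055 and 0.061, so the comparisons were unpaired. The treatment protocol gives 6 h for a culture with another stimulus, which leaves the stimulation time uncertain. The members and gene lists were chosen with earlier results of these data known, so no result stands as independent support for another. Regions are named where they passed a test, or where they were found everywhere within 1 kb of a gene end, and others are marked as picked after seeing their values. Alternatives were shorter or stricter lists, fixed windows, a shorter distance, adjustment over all regions, other ranks, a replicate block and leaving out each library. Shares over all regions or genes are given only for the main setting and adjusted p-values. Counts under the alternatives, or by unadjusted p, thus stand without a background. Sequences of the called regions were not used here, since only promoter sequences were at hand.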

Additional observations from a re-analysis of the deposited data

Results flagged for a closer look

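Among 88 groups of 6 values at the receptor genes (peaks per gene and percentiles of always-found regions), 5 held a library flagged by Dixon's criterion. Chance flags about 1 in 20 groups of continuous values. Peak numbers are small tied counts, so that rate does not apply to them, and a difference of 1 peak can flag a library. Diabetic stimulated replicate 1 had 2 peaks at Ccr2, where the other 5 libraries had 3. Diabetic unstimulated replicate 2 had 5 peaks at Ccr2, where the others had 4. Diabetic stimulated replicate 3 had 10 peaks at Cxcr4, where the others had 7 to 8. The Cx3cr1 region 923 bp from the 3′ end of the gene stood out in both stimulated groups: diabetic replicate 5 was at percentile 43.0, where the others ran from 78.9 to 94.6, and control replicate 3 was at 14.6, where the others ran from 60.4 to 77.8. Control stimulated replicate 3 also had the shortest list, of 41385 peaks, and diabetic stimulated replicate 5 the shortest of its group, of 46503. The part of list length in these percentiles was not tested.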

How the results depend on the processing

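No called difference at a named receptor region that could still be tested reversed its direction under the alternatives tried. Of the values recomputed for named regions that could still be tested, 784 stayed on their side of the threshold and 43 lost the call. Calls lost because a region could no longer be tested, such as both at Ccr7 with lists of equal length, are not among the 43. The counts that follow are given without the share called over all regions. With lists of equal length 3 regions were gained in diabetic and 3 lost in control macrophages, against 1 and 1 as reported. A −log10 q-value of at least 5 gave 5 lost regions over both phenotypes and 5 in controls. Adjusting over all regions left 1 lost over both phenotypes, 0 gained in diabetic, and 0 gained and 0 lost in control macrophages. With genes at most 10 kb away, 1 region was gained and 1 lost over both phenotypes, 0 gained in diabetic and 1 gained in control macrophages, since the regions beyond that distance were left out. Ranks of the −log10 q-value gave 2 higher regions over both phenotypes and 1 in diabetic macrophages. They turned the sign of 7 of 63 stimulation differences, 0 of them called, among which the Fpr2 region 16351 bp beyond the gene had a difference of 0.057 normal score units in diabetic macrophages, against -0.354 by the fold. The cause of these changes of sign was not tested.

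The replicate block, which pairs libraries by number, gave 3 gained and 3 lost over both phenotypes and 0 lost in controls, with an adjusted p of 0.0653 for the gained Ccr1 region and 0.0589 for the Cxcr4 region in diabetic macrophages. The numbers were not shown to pair the libraries. Of the 12 stimulated libraries, 1 correlated best with its own number.

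Leaving out each library in turn gave 3 to 5 gained and 3 to 4 lost over both phenotypes, 1 to 2 gained and 0 to 1 lost in diabetic, and 2 to 3 gained and 0 to 2 lost in control macrophages. Controls lost 2 regions without control unstimulated replicate 2 or control stimulated replicate 5 or 6, and 0 without any other control library but stimulated replicate 4. Diabetic macrophages gained 2 without stimulated replicate 5 and lost 1 without stimulated replicate 6. By rank it gave 6 to 7 lower over both phenotypes, 2 to 4 lower in diabetic, and 0 to 1 higher and 4 to 6 lower in control macrophages, with 1 higher without diabetic stimulated replicate 3 or 5 or control stimulated replicate 3. The comparisons of phenotypes and the interaction kept 0 calls under each of these alternatives. Peak calls without read totals limit every value here: a peak near the threshold can be missed in a shallow library.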
